A study of Homo sapiens with 18 samples.

Results

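The measurements described here are RNA-Seq counts of 8 genes: the vitamin K-dependent ligands PROS1 (protein S) and GAS6, their receptors TYRO3, AXL and MERTK, and the vitamin K enzymes GGCX, VKORC1 and VKORC1L1. They were chosen by name for these roles, with earlier results of these data known. All 8 had a row among the 25435 rows of the count table. The cells were HEK293doxERN2, a line derived from human embryonic kidney that carries a FLAG-tagged ERN2 transgene switched on by doxycycline. Every library came from this line. Cells had doxycycline at 0, 10 or 100 ng/mL over 24 hours and were then given 200 nM thapsigargin, which blocks the calcium pump of the ER, or the same volume of DMSO (vehicle) for 3 hours. Each of the 6 groups had 3 libraries, 18 in all. The labels do not say whether these were separate cultures, so p-values measure the spread between libraries. No group held doxycycline without the transgene, so the drug and ERN2 cannot be told apart.

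Protein S and GAS6 are secreted proteins that share a domain of gamma-carboxyglutamate residues, through which, with calcium, they bind phosphatidylserine on membranes. In the ER, GGCX (gamma-glutamyl carboxylase) makes these residues with reduced vitamin K, and VKORC1, the target of warfarin, and its paralog VKORC1L1 return the oxidized vitamin to the reduced form. GAS6 is a ligand of all the TAM receptor tyrosine kinases (TYRO3, AXL and MERTK), and protein S is a ligand of TYRO3 and MERTK as well as a plasma anticoagulant. All 8 genes encode proteins that are made at the ER. ERN2 (IRE1β) is an ER stress sensor with an endonuclease that cuts XBP1 mRNA at a pair of stem-loops, and IRE1 enzymes can also cut other mRNAs at the ER.

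Since that endonuclease reads a short stem-loop, the transcripts of the 8 genes were searched for its letters, a loop of 7 bases, CNGCAGN, closed by at least 4 Watson-Crick pairs. GGCX held 1 such stem-loop, in the coding part of exon 14 (GRCh38, chr2:85550716-85550732, minus strand), with a stem of 5 pairs, and the other 7 genes held 0. It is given here beside the stem-loops of XBP1 exon 4, at chr22:28796143-28796161 and chr22:28796116-28796136 (minus strand, stems of 6 and 7 pairs), with loop bases in capitals. PROS1 held the bare letters CTGCAG, which stood in 89.857% of transcripts within 1.2-fold of its length, at 1 place, in the 3′ UTR part of exon 15 (chr3:93873592-93873613, minus strand), shown with the 8 bases on either side and the letters in capitals.
GGCX: cagagCTGCAGCctctg
XBP1 first loop: ctgagtCCGCAGCactcag
XBP1 second loop: tgcacctCTGCAGCaggtgca
PROS1: cttggcagCTGCAGtctgtcag

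Such a stem-loop stood in 3.493% of 19669 human transcripts, 1 per gene (GENCODE release 29), and in 6.593% of the 1441 within 1.2-fold of the length of the GGCX transcript. VKORC1 held 0 CTGCAG sites, GGCX 3, GAS6 and MERTK 4 each, and TYRO3, AXL and VKORC1L1 5 each. These matches are descriptions of the letters, and no cleavage was measured.

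ERN2 counts followed the labels. In CPM (counts relative to TMM-scaled library size), ERN2 in vehicle stood at 7.92 ± 1.3 (SD, n = 3 here and below) when uninduced, at 35.7 ± 18.4 with the low dose of 10 ng/mL and at 266 ± 36.1 with 100 ng/mL, and at 12.4 ± 1.98, 66.0 ± 40.7 and 201 ± 57.2 in thapsigargin. Library totals ran from 14876416 to 24652240 counts. The libraries at 100 ng/mL with thapsigargin lay farthest from their group mean, at 0.299 to 0.362 on the log2 scale (root mean square over genes) against 0.187 to 0.292 elsewhere. The cells were checked against markers because the extraction label speaks of colon crypt cells. All 4 neurofilament and kidney-type genes listed for HEK293 (NEFL, NEFM, INA and PAX2) averaged over 1 CPM in every group. They summed to 180 to 277 CPM. Of the colon list, VIL1, CDH17, MUC2 and KRT20 stayed at or under 0.242 CPM, while LGR5, EPCAM and CDX2 reached 36, 22.6 and 8.94 CPM. Of the hepatocyte list, whose cells make plasma protein S, 6 genes together reached at most 1.07 CPM and APOH was at 0 in all libraries. Of the list for macrophages, which use MERTK and AXL, PTPRC and CD163 did not pass 0.273 CPM. CSF1R and ITGAM reached at most 0.453 and 0.738 CPM, CD14 2.57 and CD68 14.6. The summed macrophage list, 6 genes led by lysosomal CD68, ran from 12.4 to 16.3 CPM in uninduced vehicle libraries and from 8.72 to 10.4 at 100 ng/mL. Its endothelial counterpart of 4 genes ran from 3.77 to 6.20 and from 2.77 to 4.55. Of these 4, PECAM1 and CDH5 stayed at or under 0.358 CPM, while KDR and VWF reached 8.15 and 2.57 CPM. The colon list of 7 genes, carried by LGR5, EPCAM and CDX2, ran from 41.5 to 60.1 CPM and from 29.7 to 40.2.

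To compare genes with each other, CPM were divided by the length of each gene's exons. In uninduced vehicle-treated cells the order of these levels was VKORC1 (25.8 ± 2.25 CPM per kb), VKORC1L1 (17.9 ± 2.55), GAS6 (7.08 ± 0.261), GGCX (6.84 ± 0.192), PROS1 (4.6 ± 0.954), TYRO3 (3.91 ± 0.356), MERTK (3.56 ± 0.478) and AXL (0.192 ± 0.0485). GAS6 and GGCX overlapped, as did PROS1, TYRO3 and MERTK with each other. The order was the same when the length of a single transcript was used. AXL was at the edge of detection, with 6 to 34 reads per library. At 100 ng/mL in vehicle the reductases still led at 22.7 ± 3.84 and 15.1 ± 1.71 CPM per kb, and MERTK, GGCX, GAS6 and TYRO3 lay together between 2.47 and 2.77. PROS1, at 0.438 ± 0.0854, then stood above AXL only.

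**Figure D1:**
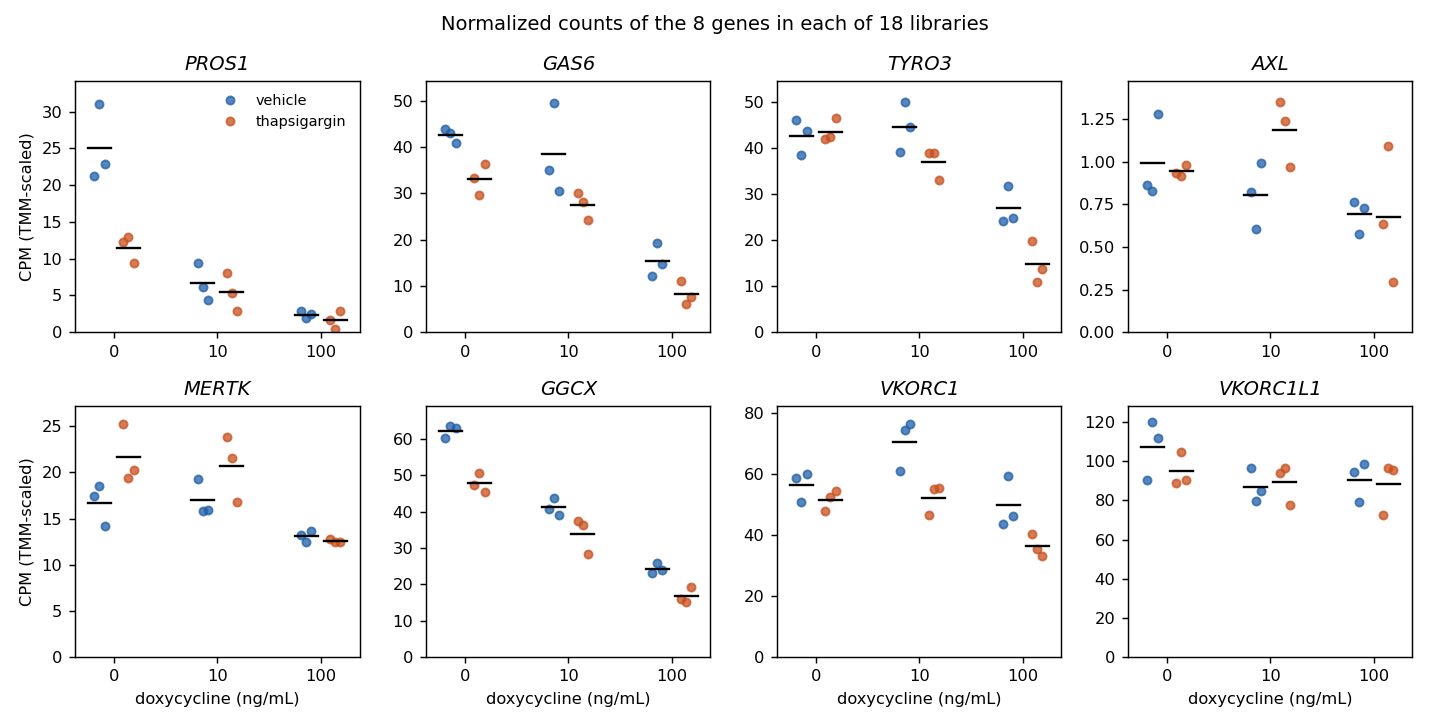
CPM (TMM-scaled, linear axis from 0) of each gene at 0, 10 and 100 ng/mL doxycycline in vehicle (blue) and thapsigargin (orange). Points are the 18 libraries and black bars are means of 3. PROS1 fell from a mean of 25.0 to 2.38 CPM in vehicle, while VKORC1L1 stood at 107 and 90.7 CPM with overlapping libraries.

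What high ERN2 induction did in unstressed cells was asked by comparing 100 with 0 ng/mL in vehicle. PROS1, GAS6, GGCX and TYRO3 fell, by 10.6-, 2.75-, 2.56- and 1.58-fold. In edgeR's quasi-likelihood test at an adjusted p under 0.01, 4 of the 8 genes were lower and 0 higher, where 7.49% of the 14444 genes tested were lower and 0.838% higher. The median log2 fold change of the 8 was -0.59, against -0.00684 over all genes. The libraries of 6 of the 8 did not overlap, all in the lower direction, against 18.3% of genes. In bulk RNA, fewer cells that express a gene and less of its RNA per cell cannot be told apart.

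Of the ligands, PROS1 stood at 21.3, 31.0 and 22.9 CPM in uninduced libraries and at 2.81, 1.89 and 2.45 CPM at 100 ng/mL. The lowest uninduced library was far above the highest induced one, and the log2 fold change was -3.40 (SE 0.207, adjusted p = 3.61e-07). GAS6 stood at 43.8, 43.1 and 40.8 CPM and at 12.2, 19.3 and 14.8 CPM. The groups were again separate, with a log2 fold change of -1.46 (SE 0.162, adjusted p = 4.44e-05). GAS6-AS1, an antisense gene that shares 421 exonic bases with GAS6, had 0 to 6 reads in any library. PROS2P, the pseudogene of PROS1, had no row, and how reads that fit both copies were counted is not given in the sources used here.

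Of the receptors, TYRO3 stood at 46.1, 38.5 and 43.8 CPM in uninduced cells and at 24.3, 31.9 and 24.9 CPM with 100 ng/mL. The fall was small but without overlap, at a log2 fold change of -0.66 (SE 0.141, adjusted p = 0.0064). It missed the threshold without uninduced replicate 1 or 3 or induced replicate 1 or 3 (adjusted p = 0.0354, 0.022, 0.0166 and 0.0327) and in the fit of all 6 groups (adjusted p = 0.0125). MERTK, the receptor of phagocytes that clear dying cells, stood at 17.4, 18.5 and 14.2 CPM and at 13.2, 12.4 and 13.6 CPM, with a log2 fold change of -0.36 (SE 0.145, adjusted p = 0.122). AXL, the receptor with GAS6 as its ligand, lay between 0.825 and 1.28 CPM and between 0.574 and 0.766 CPM (log2 fold change -0.52, SE 0.339, adjusted p = 0.332). Neither passed the test. At the depth of AXL, a change of the size seen for TYRO3 is within 2 standard errors and was not detectable.

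Among the vitamin K enzymes, the carboxylase and the reductases parted. GGCX stood at 60.3, 63.5 and 63.0 CPM and fell to 23.1, 25.8 and 24.0 CPM, with a log2 fold change of -1.35 (SE 0.115, adjusted p = 5.07e-06). GGCX shares 558 exonic bases with MAT2A on the other strand, whose own log2 fold change was -0.03 (SE 0.0994, adjusted p = 0.863). VKORC1 stood at 58.5, 50.9 and 60.1 CPM and at 43.5, 59.3 and 46.2 CPM, and VKORC1L1 at 90.4, 120 and 112 CPM and at 94.6, 79.0 and 98.4 CPM. Both reductases overlapped between groups, with log2 fold changes of -0.18 (SE 0.138, adjusted p = 0.404) and -0.24 (SE 0.131, adjusted p = 0.24). VKORC1 shares 761 exonic bases with AC135050.2 on its own strand, which had no row of its own.

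**Figure D2:**
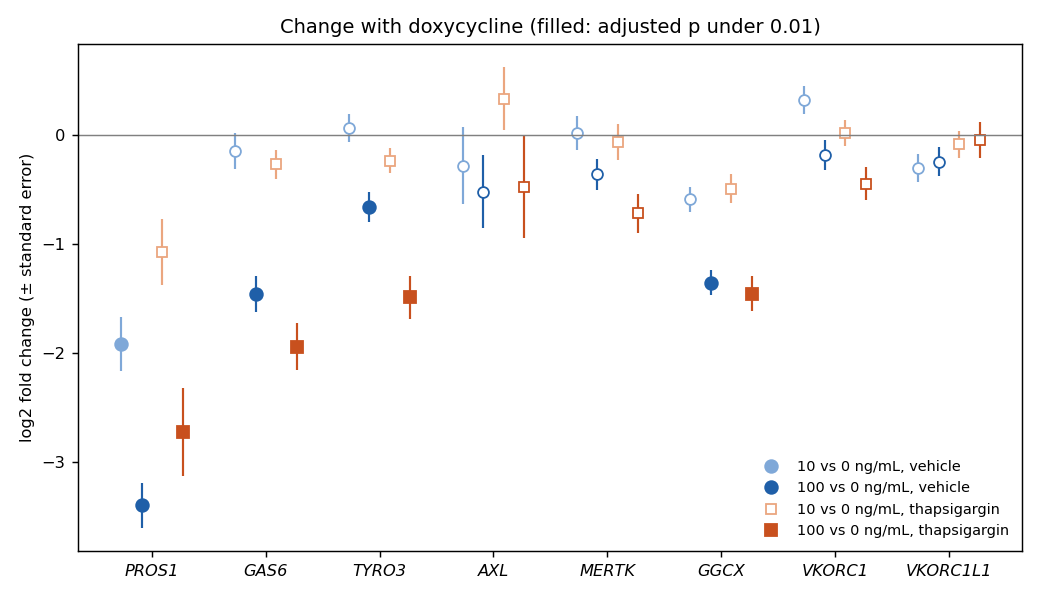
Log2 fold change with its standard error (edgeR, n = 3 per group) of each gene at 10 and 100 ng/mL against 0 ng/mL doxycycline, in vehicle (blue circles) and thapsigargin (orange squares). Filled symbols had an adjusted p under 0.01; PROS1 lies lowest at 100 ng/mL (-3.40 and -2.73), and AXL, MERTK, VKORC1 and VKORC1L1 have open symbols only.

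At low induction, 10 against 0 ng/mL in vehicle, PROS1 was the gene of the 8 that passed the test (1 of 8 lower, against 0.0552% of 14497 genes lower). In all, 28 genes were called, but 2743 without replicate 1 at 10 ng/mL (1566 of them lower, 2 of the 8 genes called) and 0 without any 1 uninduced library or replicate 2 at 10 ng/mL. Its libraries held 9.45, 6.09 and 4.33 CPM, all under the uninduced ones, and its log2 fold change was -1.92 (SE 0.246, adjusted p = 0.00528). The call was lost without uninduced replicate 1, 2 or 3 or without replicate 2 at 10 ng/mL (adjusted p = 0.0427, 0.0126, 0.0282 and 0.0241) and in the fit of all 6 groups (adjusted p = 0.0336). GGCX held 40.8, 43.9 and 39.1 CPM, also without overlap, with a log2 fold change of -0.59 (SE 0.112, adjusted p = 0.0303), and it passed without replicate 1 at 10 ng/mL (adjusted p = 0.0019). GAS6, at 35.1, 49.5 and 30.6 CPM, and TYRO3, at 39.3, 50.1 and 44.7 CPM, overlapped the uninduced libraries, with log2 fold changes of -0.15 (SE 0.163) and 0.06 (SE 0.131). VKORC1 held 60.8, 74.5 and 76.3 CPM, above each uninduced library, at a log2 fold change of 0.32 (SE 0.126, adjusted p = 0.118).

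From 10 to 100 ng/mL in vehicle, GAS6 and GGCX fell (2 of 8 lower, against 2.43% of genes), with log2 fold changes of -1.30 (SE 0.213, adjusted p = 0.00651) and -0.75 (SE 0.121, adjusted p = 0.0062). The 356 genes called over the table were 9, 21 and 0 without replicate 2 at 10 ng/mL and replicates 1 and 3 at 100 ng/mL. Neither was called without replicate 2 at 10 ng/mL (adjusted p = 0.0323 and 0.0496), without replicate 1 at 100 ng/mL (0.0234 and 0.031) or without replicate 3 there (0.0499 and 0.0482). PROS1 and TYRO3 had log2 fold changes of -1.47 (SE 0.308, adjusted p = 0.0193) and -0.71 (SE 0.146, adjusted p = 0.0173), both without overlap. PROS1 passed without replicate 3 at 10 ng/mL (adjusted p = 0.00488), and TYRO3 without replicate 1 there or replicate 2 at 100 ng/mL (0.00573 and 0.00732). VKORC1 stood below its level at 10 ng/mL in each library (log2 fold change -0.49, SE 0.142, adjusted p = 0.0812). PROS1 thus had most of its log2 difference between 0 and 10 ng/mL and GAS6 between 10 and 100 ng/mL; whether these steps differed was not tested.

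The same doses were compared in thapsigargin-treated cells. PROS1, GAS6, TYRO3 and GGCX fell from 0 to 100 ng/mL, by 6.63-, 3.84-, 2.81- and 2.75-fold, so that 4 of 8 were lower, where 9.00% of 14358 genes were lower and 1.53% higher. The libraries of 6 of the 8 did not overlap, in the lower direction, against 23.2% of genes. The median log2 fold change of the 8 was -1.09, against 0.0439 over all genes. Each of these calls held when any 1 of the 6 libraries was left out, while the 1512 genes called over the table were 875 and 964 without uninduced replicates 1 and 2 and 3950 and 763 without induced replicates 1 and 2.

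PROS1 stood at 12.2, 13.0 and 9.34 CPM in thapsigargin alone and at 1.61, 0.409 and 2.81 CPM at 100 ng/mL, where these are 33, 6 and 57 reads. The induced libraries were spread widely, yet all lay under the uninduced ones (log2 fold change -2.73, SE 0.406, adjusted p = 0.000467). Without induced replicate 2, the library of 6 reads, it was -2.31, and without induced replicate 3 it was -3.37. GAS6 stood at 33.2, 29.6 and 36.3 CPM and at 11.1, 6.00 and 7.55 CPM (log2 fold change -1.94, SE 0.215, adjusted p = 5.11e-05). TYRO3 stood at 42.0, 42.4 and 46.6 CPM and at 19.8, 11.0 and 13.8 CPM (log2 fold change -1.49, SE 0.199, adjusted p = 0.000207). Replicate 2 at 100 ng/mL, the library with the smallest total (14876416 counts), was the lowest for all 3 of these genes and for GGCX. GGCX stood at 47.4, 50.6 and 45.3 CPM and at 15.8, 15.1 and 19.1 CPM, a tight pair of groups with a log2 fold change of -1.46 (SE 0.163, adjusted p = 5.61e-05). MAT2A, on the other strand of GGCX, was higher at 100 ng/mL here (log2 fold change 0.79, SE 0.145, adjusted p = 0.00199).

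The other receptors and reductases did not pass in thapsigargin. MERTK stood at 25.3, 19.4 and 20.3 CPM and at 12.8, 12.5 and 12.5 CPM, without overlap, at a log2 fold change of -0.72 (SE 0.177, adjusted p = 0.0125), and it passed without replicate 1 at 100 ng/mL (adjusted p = 0.00448), in DESeq2 (0.00208), without the filter on low counts (0.00801) and in the fit of all 6 groups (0.000722). VKORC1 stood at 47.7, 52.4 and 54.4 CPM and at 40.2, 35.2 and 33.2 CPM (log2 fold change -0.45, SE 0.149, adjusted p = 0.0514), and it passed in the fit of all 6 groups (adjusted p = 0.00851). AXL, at 0.918 to 0.981 CPM and 0.296 to 1.09 CPM, and VKORC1L1, at 89.0, 105 and 90.6 CPM and 72.4, 96.8 and 95.4 CPM, overlapped.

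At 10 against 0 ng/mL in thapsigargin, 0 of the 8 genes and 0 of 14509 genes passed edgeR's test (0% called). The induced ERN2 itself did not pass (log2 fold change 2.42, SE 0.384, adjusted p = 0.2915), although it lay higher in each library at 10 ng/mL. DESeq2 called 39 genes. In edgeR, 612 genes, 2 of the 8 among them, had an unadjusted p under 0.05. Those 2 were PROS1 (7.99, 5.37 and 2.91 CPM, log2 fold change -1.07, SE 0.304) and GGCX (37.3, 36.3 and 28.3 CPM, log2 fold change -0.49, SE 0.135), and with TYRO3 they were the 3 of the 8 whose libraries did not overlap, in the lower direction, against 5.80% of genes. Same-numbered libraries of these groups deviated together, and with the replicate number as a block both passed, at log2 fold changes of -1.12 (adjusted p = 0.000119) and -0.50 (adjusted p = 0.000357), among 564 genes called. The remaining 6 genes did not pass in the blocked fit.

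From 10 to 100 ng/mL in thapsigargin, GAS6, TYRO3 and GGCX fell (3 of 8 lower, against 5.32% of genes), with log2 fold changes of -1.68 (SE 0.226, adjusted p = 0.00074), -1.26 (SE 0.212, adjusted p = 0.00225) and -0.97 (SE 0.186, adjusted p = 0.00458). The 805 genes called over the table ran from 42 without replicate 2 to 2712 without replicate 1 at 100 ng/mL, and were 217, 143 and 534 without replicates 1 and 2 at 10 ng/mL and replicate 3 at 100 ng/mL. Without replicate 2 at 100 ng/mL all 3 calls were lost (adjusted p = 0.013, 0.0298 and 0.0545). TYRO3 and GGCX were also lost without replicate 1 at 10 ng/mL (0.0155 and 0.0359) or replicate 2 there (0.0207 and 0.0474). PROS1 had a log2 fold change of -1.65 (SE 0.492, adjusted p = 0.0416), and MERTK one of -0.66 (SE 0.189, adjusted p = 0.0361).

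The response to thapsigargin itself was compared at each dose. Without doxycycline, PROS1 fell 2.15-fold, and it was the gene of the 8 that passed (1 of 8 lower, against 4.74% of 14397 genes lower and 6.45% higher). The 1611 genes behind these shares were 731 and 923 without vehicle replicates 1 and 3 and 906 and 996 without thapsigargin replicates 1 and 2. Its log2 fold change was -1.11 (SE 0.176, adjusted p = 0.000836), and the call was lost in the fit of all 6 groups (adjusted p = 0.0379). GGCX and GAS6 lay lower in each thapsigargin library, at log2 fold changes of -0.37 (SE 0.109, adjusted p = 0.0266) and -0.35 (SE 0.117, adjusted p = 0.0452), and GGCX passed in DESeq2 (adjusted p = 0.00875). MERTK lay higher in each, at 0.38 (SE 0.15, adjusted p = 0.0835). MAT2A fell with thapsigargin (log2 fold change -0.81, SE 0.109, adjusted p = 0.000253), and its part in the GGCX value was not tested.

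At 10 ng/mL, 0 of the 8 genes passed edgeR's test of thapsigargin against vehicle, where 1.45% of 14607 genes were called. Of these 14607 genes, 3602 had an unadjusted p under 0.05, 2 of the 8 among them. The 212 genes called were 28 and 117 without vehicle replicates 2 and 3, and 57 and 494 without thapsigargin replicates 2 and 3. The 2 of the 8 were GAS6 (log2 fold change -0.48, SE 0.185, adjusted p = 0.145) and VKORC1 (-0.43, SE 0.136, adjusted p = 0.0879), both lower in each thapsigargin library. TYRO3 and GGCX also lay lower in each, at -0.26 (SE 0.1375, adjusted p = 0.266) and -0.28 (SE 0.139, adjusted p = 0.252). DESeq2 called 1051 genes, 0 of them among the 8. PROS1, at 9.45, 6.09 and 4.33 CPM in vehicle and 7.99, 5.37 and 2.91 CPM in thapsigargin, overlapped (log2 fold change -0.27, SE 0.361).

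At 100 ng/mL, 0 of the 8 passed edgeR's test, where 0.201% of 14427 genes were called. Of these 14427 genes, 3892 had an unadjusted p under 0.05, 4 of the 8 among them. DESeq2 called 729 genes, 1 of the 8 among them, TYRO3 (adjusted p = 0.00821). The 29 genes called over the table became 2568 without thapsigargin replicate 1, 2 of the 8 among them, and 4 to 12 without any other library. TYRO3 and GAS6 lay lower in each thapsigargin library, at log2 fold changes of -0.81 (SE 0.216, adjusted p = 0.0652) and -0.86 (SE 0.247, adjusted p = 0.0803), and both passed without thapsigargin replicate 1 at 100 ng/mL (adjusted p = 0.000689 and 0.00138). GGCX and VKORC1 also lay lower in each thapsigargin library, at -0.50 (SE 0.16, adjusted p = 0.101) and -0.41 (SE 0.16, adjusted p = 0.145). PROS1 overlapped, with 2.81, 1.89 and 2.45 CPM in vehicle against 1.61, 0.409 and 2.81 CPM.

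Whether induction changed the response to thapsigargin was tested as an interaction, the log2 response at a dose minus that without doxycycline. At 10 ng/mL, edgeR called 0 of 14857 genes (0%), 664 had an unadjusted p under 0.05, 0 of them among the 8, and DESeq2 called 2 genes, 0 of them among the 8. At 100 ng/mL, DESeq2 called 340 genes, 0 of them among the 8. In edgeR, 0.0406% of 14768 genes and 0 of the 8 were called, and 3651 genes, 1 of the 8 among them, had an unadjusted p under 0.05. The 6 genes called over the table were 1286 without the thapsigargin library of replicate 1 at 100 ng/mL and 2 to 10 without any other. The 1 of the 8 was TYRO3, whose response was 0.04 without doxycycline and -0.81 at 100 ng/mL in the fits of each dose. The joint fit of 12 libraries gave a difference of -0.77 (SE 0.238, adjusted p = 0.0934), and without that library -1.07 (adjusted p = 0.00355). For PROS1 the difference was 0.74 (SE 0.508, adjusted p = 0.375). It ranged from 0.056 without thapsigargin replicate 3 at 100 ng/mL to 1.12 without replicate 2 there, the library with 6 reads of PROS1.

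Ratios of counts within a library need no scaling between libraries, and 3 were compared between 0 and 100 ng/mL by exact two-sided permutation of dose within treatment, with p-values adjusted over the 3. The log2 ratio of PROS1 to GAS6 was -0.78 ± 0.285 in uninduced cells and -2.67 ± 0.623 at 100 ng/mL in vehicle, and -1.53 ± 0.39 and -2.65 ± 1.18 in thapsigargin. On average PROS1 fell further than GAS6, by 1.89 in vehicle and 1.12 in thapsigargin on the log2 scale. The mean difference was -1.51 (exact permutation p = 0.015, adjusted p = 0.045, the smallest p possible being 0.005). Libraries at 0 and 100 ng/mL were separate in vehicle. In thapsigargin they overlapped, at -1.442, -1.192 and -1.956 without doxycycline and -2.764, -3.767 and -1.417 at 100 ng/mL. The adjusted p rose above 0.05 without uninduced vehicle replicate 1, 2 or 3 (0.06 each), uninduced thapsigargin replicate 2 (0.09) or induced thapsigargin replicate 1 or 2 (0.075 each). In vehicle the ratio was already -2.57 ± 0.601 at 10 ng/mL.

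The ratio of VKORC1 to VKORC1L1, the paired reductases, moved by -0.17 (exact permutation p = 0.385), with 0.05 in vehicle and -0.40 in thapsigargin. Its highest mean was at 10 ng/mL in vehicle, -0.31 ± 0.315, against -0.92 ± 0.304 without doxycycline. The ratio of AXL to TYRO3 moved by 0.56 (exact permutation p = 0.13, adjusted p = 0.195), and without induced vehicle replicate 2 by 0.69 (exact permutation, adjusted p = 0.0375). Its spread at 100 ng/mL in thapsigargin, from -5.43 to -3.30, was the widest of its 6 groups.

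**Figure D3:**
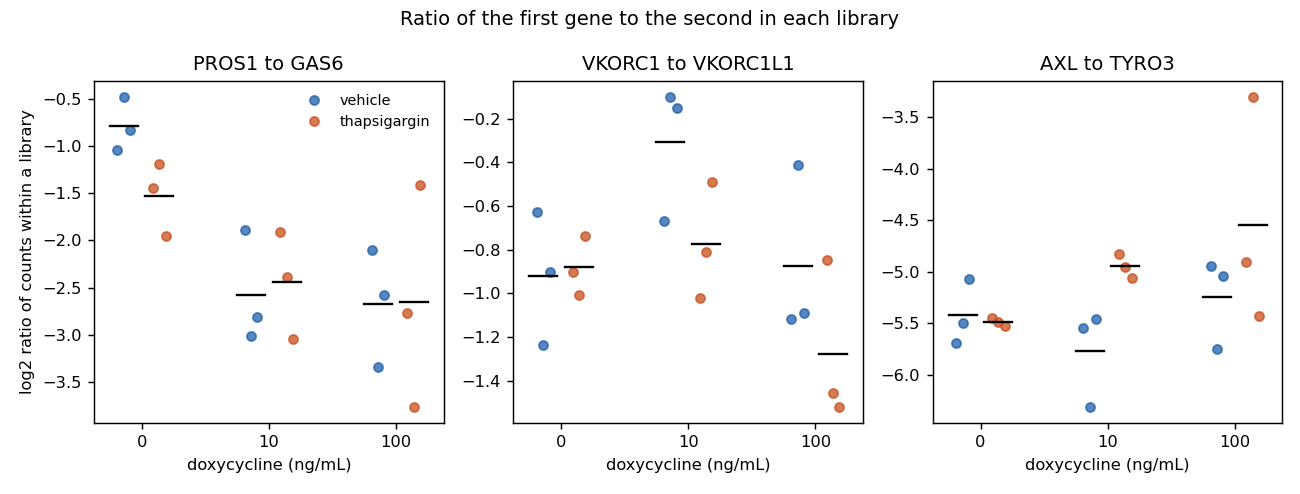
Log2 ratio of counts within each library for PROS1 to GAS6, VKORC1 to VKORC1L1 and AXL to TYRO3, by doxycycline dose, in vehicle (blue) and thapsigargin (orange), with black bars at the means of 3. The PROS1 to GAS6 ratio lies between -1.04 and -0.48 in the uninduced vehicle libraries and between -3.34 and -2.10 in vehicle at 100 ng/mL. In thapsigargin these ranges overlap, at -1.956 to -1.192 and -3.767 to -1.417.

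Genes with related roles were counted in 5 lists of 49 genes, all with a row. At 100 against 0 ng/mL in vehicle 34 were tested, 7 were lower and 0 higher, and the median log2 fold change was -0.101. In thapsigargin 33 were tested, 7 were lower and 0 higher, and the median was -0.119. These shares are to be read beside the 7.49% and 9.00% of all genes that were lower.

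Of 12 other proteins with gamma-carboxylated residues, such as the clotting factors F2, F7, F9 and F10, 3 were expressed enough to test, the membrane proteins PRRG1, PRRG2 and PRRG4, and 0 passed in either treatment. Of 8 genes for vitamin K recycling and its redox partners, 7 were tested and 2 fell in both treatments. TXNDC12, an ER thioredoxin-like protein, went from 97.3 to 23.1 CPM in vehicle (log2 fold change -2.08, SE 0.134, adjusted p = 5.01e-07) and had -1.87 (SE 0.191) in thapsigargin. TMX4, a membrane-bound thioredoxin-like protein of the ER, had -1.23 (SE 0.113, adjusted p = 1.01e-05) and -1.5 (SE 0.172, adjusted p = 6.79e-05). The reductase AIFM2, which acts outside the ER lumen, had a log2 fold change of 0.34 (SE 0.142, adjusted p = 0.132) in vehicle and did not pass.

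Of 11 genes for further TAM ligands, receptor shedding and phosphatidylserine exposure, 10 were tested and 3 fell in each treatment. ANO6, a scramblase that exposes phosphatidylserine, and ATP11A, a flippase that returns it to the inner leaflet, fell in both, at -1.19 (SE 0.123, adjusted p = 2.59e-05) and -1.05 (SE 0.101, adjusted p = 1.44e-05) in vehicle and -1.25 (SE 0.192) and -1.19 (SE 0.138) in thapsigargin. So genes with opposite actions on the lipid fell together. ADAM17, a protease that sheds AXL and MERTK, passed in thapsigargin (-0.71, SE 0.158, adjusted p = 0.00732). ADAM17 lost its call without any 1 of the uninduced thapsigargin libraries or induced replicate 2 (adjusted p = 0.0517, 0.0273, 0.0177 and 0.0672).

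Of 11 TAM signalling genes, PIK3R2, a regulatory subunit of PI3 kinase, was the gene that passed in both treatments (-0.54, SE 0.116, adjusted p = 0.00671; -0.76, SE 0.156, adjusted p = 0.00419). It failed in 5 of the 6 fits that left out 1 library in each treatment, all but those without induced replicate 2 in vehicle and induced replicate 1 in thapsigargin, with adjusted p up to 0.0401 in vehicle and 0.0431 in thapsigargin. Of 7 partners of protein S, 3 were tested. PROCR, the endothelial receptor of protein C, fell in both treatments, at -0.98 (SE 0.201, adjusted p = 0.00492) and -1.79 (SE 0.243, adjusted p = 0.000234), and in vehicle it failed without uninduced replicate 1 or 3 or induced replicate 1 or 3 (adjusted p = 0.0186, 0.0233, 0.011 and 0.0206). TFPI, the inhibitor of tissue factor that uses protein S as a cofactor, was singled out after its values were seen. It fell with thapsigargin in uninduced cells, from 10.2 to 3.68 CPM (log2 fold change -1.45, SE 0.201, adjusted p = 0.000316), and there it was the gene called of the 33 listed genes that were tested, where 4.74% of all genes were lower and 6.45% higher. At 100 ng/mL TFPI was at 7.39 CPM in vehicle and 7.15 in thapsigargin (log2 fold change 0.0025, SE 0.282). At 100 against 0 ng/mL in thapsigargin it lay higher in each library, at 1.02 (SE 0.266, adjusted p = 0.0171), and the interaction at 100 ng/mL was 1.54 (SE 0.377, adjusted p = 0.064); neither passed.

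**Figure D4:**
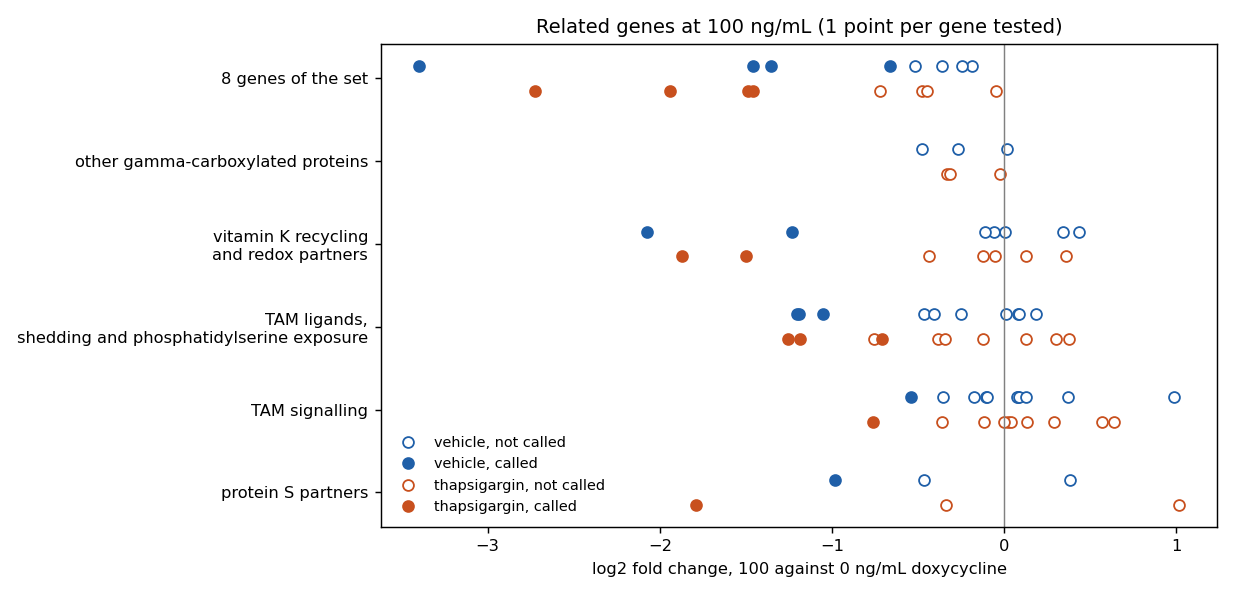
Log2 fold change at 100 against 0 ng/mL doxycycline (edgeR) for the 8 genes and for each tested gene of the 5 related lists, in vehicle (blue) and thapsigargin (orange), 1 point per gene. Filled points had an adjusted p under 0.01, and they all lie below 0, 7 of 34 list genes in vehicle and 7 of 33 in thapsigargin.

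For the 4 genes that passed a test, the genes most alike in pattern were those with the smallest root mean square difference in centred log2 CPM over the 18 libraries, among 15022 others. PROS1, which itself varied by 1.48 on that measure, had ITGB1 (0.518), TMEM19 (0.535) and GPC3 (0.538) as its nearest. GAS6 varied by 0.875, with SLC25A1 (0.106), PLD3 (0.136) and PSAP (0.142) nearest. TYRO3 varied by 0.606, with APH1A (0.116), CLSTN1 (0.122) and DNASE2 (0.13) nearest, and GGCX by 0.637, with ICMT (0.103), CMTM4 (0.119) and ROBO1 (0.127) nearest. These are descriptions over libraries that share groups and depth. No gene followed PROS1 as closely as the neighbours of the other 3 followed theirs, and PROS1 was also the gene with the fewest reads of the 4.

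The promoters of the 8 genes were read for letters that stress factors are known to bind, in windows around each start (RefSeq, GRCh38.p14), of which the 8 genes had 10. The letters were TGACGTG (the core of the UPRE of XBP1 and ATF6), ERSE (CCAAT and CCACG with 9 bases between), ERSE-II (ATTGG and CCACG with 1 base between) and TGATGNAA (read by ATF4 and CHOP), on both strands. They stood in 1.971%, 0.077%, 0.054% and 3.617% of 35116 windows and in 0 of the windows of the 8 genes. This says only that these letters were not in these windows.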

How the data were processed

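Poly(A) RNA of 18 libraries was sequenced single-end from a stranded kit. The authors used STAR, within the VIPER pipeline, for alignment and deposited unnormalized counts per gene symbol. The submitters' processing notes name hg38; the annotation and strand setting are not given in the sources used here. Of 25435 rows, 28 carried date-like symbols. Columns were assigned through the labels' column numbers. No pair of replicates agreed within sampling noise.

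Each comparison used only its own groups: filterByExpr (minimum count 10), TMM, edgeR 4.0.16 quasi-likelihood test (R 4.3.3), Benjamini-Hochberg adjustment over all genes tested, threshold 0.01 after the study's methods. A standard error is the log2 fold change over the root of the F statistic. CPM were TMM-scaled over all 18 libraries. Ratios of counts had 0.5 added. Intervals of level cover the spread between libraries. In simulated counts with 2-fold changes for 100 against 0 ng/mL in vehicle, edgeR recovered 82.7% of 196 genes among 14327. For the interaction at 100 ng/mL it recovered 14.1% of 199 among 14642. Of its calls 1.22% and 6.67% were false, and of those of DESeq2 1.83% and 10.4%.

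The named genes were the 8 genes, ERN2, listed genes past the threshold at 100 ng/mL and the 3 genes nearest in pattern to each called gene. The genes and lists were chosen with earlier results of these data known. Alternatives were DESeq2 1.42.0, RLE factors, no filter, a fit of all 6 groups, a block for the replicate number, a threshold of 0.05 and each library left out. Replicate numbers were taken to pair libraries where every same-numbered pair of deviations correlated over 0.1. Of 9 comparisons, 1 met this, 10 against 0 ng/mL in thapsigargin (0.343 to 0.467); thapsigargin without doxycycline, at 0.0825, 0.204 and 0.272, missed it in 1 pair. Some listed genes are counted in their lists but not reported here by name.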

Additional observations from a re-analysis of the deposited data

How the results depend on the processing

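The log2 fold changes that passed the test for the 8 genes, 15 in all, kept their sign in all 75 alternative values and all 90 values with 1 library left out; 5 and 21 of these missed the threshold. Of the 365 alternative values of the 73 that did not pass, 29 passed. DESeq2 called 2 of the 8 genes at 10 against 0 ng/mL in vehicle (1 as reported), 4 at 100 against 10 ng/mL in vehicle (2), 2 for thapsigargin without doxycycline (1) and 1 for thapsigargin at 100 ng/mL (0). Without the filter the first pair of counts was 2 and 4. The fit of all 6 groups called 0 at 10 against 0 ng/mL in vehicle, 6 at 100 against 10 ng/mL in thapsigargin (3), 0 for thapsigargin without doxycycline and 3 for thapsigargin at 100 ng/mL. At a threshold of 0.05 the counts were 2 and 4 at 10 against 0 and 100 against 10 ng/mL in vehicle, 5 at 100 against 10 ng/mL in thapsigargin and 3 for thapsigargin without doxycycline. With the replicate block they were 5 at 100 against 10 ng/mL in vehicle, 2 at 10 against 0 ng/mL in thapsigargin, and 2 each for thapsigargin without doxycycline and at 10 ng/mL (0). The block took the calls of TYRO3 at 100 against 0 ng/mL in vehicle (adjusted p = 0.0418) and of PIK3R2 and PROCR there (0.0418 and 0.028). It also took those of ADAM17 at 100 against 0 ng/mL in thapsigargin (0.0205) and of GGCX at 100 against 10 ng/mL in thapsigargin (0.026). Only at 10 against 0 ng/mL in thapsigargin did all 6 libraries deviate most like the library of their own number. Of 6 libraries, 5 did so for thapsigargin without doxycycline, 4 for thapsigargin at 10 ng/mL and 1 to 3 in the rest. Correlations of same-numbered libraries ran from -0.369 to 0.521 outside 10 against 0 ng/mL in thapsigargin. The PROS1 to GAS6 ratio stayed at -1.51 with the block, where the adjusted p of the sign-flip test was 0.1875. The pair of replicate 3 in thapsigargin went the other way, at -1.417 with 100 ng/mL against -1.956 without doxycycline. The 64 sign flips give an unadjusted exact p of 0.03125 at the least. Adjusted over the 3 ratios, that least p misses 0.05 unless another ratio reaches it too. With 1 pair going the other way, the PROS1 to GAS6 ratio did not reach that least p. Its miss was therefore not set by the number of flips alone. The cause of these differences was not tested.

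Genes called over the whole table moved by more than 1.5 times. At 10 against 0 ng/mL in vehicle they numbered 28 as reported, 382 in DESeq2, 623 without the filter, 3 in the fit of all 6 groups, 124 with the block and 110 at 0.05. At 100 against 10 ng/mL in vehicle the 356 became 791, 638, 628, 1224 and 836 in that order, and at 100 against 0 ng/mL there the 1203 became 750 with the block and 2063 at 0.05. In thapsigargin the 805 at 100 against 10 ng/mL became 1617, 1646, 2054, 384 and 2061, the 1512 at 100 against 0 ng/mL became 2318 in DESeq2, 2641 in the fit of all 6 groups and 3018 at 0.05, and the 0 at 10 against 0 ng/mL became 39, 1, 0, 564 and 0. For thapsigargin the 1611 without doxycycline became 3571 with the block and 3260 at 0.05, the 212 at 10 ng/mL became 1051, 529, 676, 3620 and 1009, and the 29 at 100 ng/mL became 729, 299, 941, 4 and 494. The interaction at 100 ng/mL, 6 as reported, gave 340, 86, 35, 3 and 149, and 14 with RLE factors.

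With 1 library left out, the number of the 8 genes called ran from 0 to 2 at 10 against 0 ng/mL, 3 to 4 at 100 against 0 ng/mL and 0 to 3 at 100 against 10 ng/mL in vehicle, from 0 to 3 at 100 against 10 ng/mL and 4 to 5 at 100 against 0 ng/mL in thapsigargin, from 0 to 2 for thapsigargin at 100 ng/mL and from 0 to 1 for the interaction at 100 ng/mL. The PROS1 to GAS6 ratio ran from -1.81 to -1.23 and that of AXL to TYRO3 from 0.25 to 0.78.

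Each reversal was of a value that did not pass. VKORC1L1 went to -0.022 (100 against 10 ng/mL in thapsigargin) and -0.04025 (thapsigargin at 100 ng/mL) in the fit of all 6 groups and to -8.39e-05 (thapsigargin at 100 ng/mL) with the block. MERTK went to 0.0011 in DESeq2 and 0.0020 with RLE factors for thapsigargin at 100 ng/mL, AXL to -0.021 in the interaction at 100 ng/mL with all 6 groups, and the VKORC1 to VKORC1L1 ratio to 0.046 in vehicle alone. With 1 library left out the sign turned within these ranges. At 10 against 0 ng/mL they were -0.026 to 0.15 for TYRO3 and -0.082 to 0.099 for MERTK in vehicle, and -0.18 to 0.071 for MERTK, -0.032 to 0.098 for VKORC1 and -0.13 to 0.009977 for VKORC1L1 in thapsigargin. For VKORC1L1 they were -0.0047 to 0.18 at 100 against 10 ng/mL in vehicle, and -0.11 to 0.1024 at 100 against 0 and -0.03997 to 0.2001 at 100 against 10 ng/mL in thapsigargin. For thapsigargin they were -0.02999 to 0.095 for TYRO3 and -0.16 to 0.18 for AXL without doxycycline, -0.67 to 0.055 for PROS1 and -0.021 to 0.13 for VKORC1L1 at 10 ng/mL, and -0.51 to 0.34 for AXL, -0.052 to 0.037 for MERTK and -0.097 to 0.12 for VKORC1L1 at 100 ng/mL. For the interaction they were -0.19 to 0.049 for MERTK and -0.26 to 0.11 for GAS6 at 10 ng/mL, and -0.39 to 0.42 for AXL and -0.202 to 0.00055 for GGCX at 100 ng/mL.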
